A study of Mus musculus with 8 samples.

Results

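The genes described here encode the ADAM, ADAMTS and MMP metalloproteases, the ADAMTS-like proteins and the TIMP inhibitors, which were measured in nuclear RNA of cortical GABAergic neurons. They were taken as every protein-coding gene of the GENCODE M21 annotation whose symbol is Adam, Adamts, Adamtsl 1 to 5, Mmp or Timp 1 to 4 followed by a plain number. Of 55450 genes in the count tables, 76 met this rule, and the 49 with 10 or more counts in at least 3 libraries are reported with their values. The libraries came from sorted fluorescent nuclei of juvenile mouse cortex, 1 cortex per library. Controls were Thra+/+, and mutants were Thra+/AMI, which is heterozygous for an allele of a dominant-negative thyroid hormone receptor that Cre switches on in GABAergic neurons. The fluorescent nuclear reporter, also dependent on Cre, was present in both groups, and neither the Cre driver line nor the exact age is named in the sources used here. The comparison is between 4 controls, numbered 1 to 4, and 3 mutants, numbered 6, 7 and 8, because the tables of mutants 7 and 10 held the same counts (0 of 55220 genes compared differed) and were counted as 1 sample.

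ADAM proteins are membrane-anchored enzymes that cut the outer part off other membrane proteins, and several of them have lost the catalytic site and act as adhesion receptors. ADAMTS proteins are secreted and cut matrix proteins such as the proteoglycans of the perineuronal net, procollagens and reelin, whereas ADAMTS-like proteins share their matrix-binding domains but have no protease domain. MMPs are secreted or membrane-bound matrix proteases, and TIMPs block them. In the cortex these enzymes are known for remodelling the matrix around neurons and for shedding synaptic proteins.

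Total counts per library ran from 10747169 to 13804734. Levels are given as CPM, counts scaled to a common library total with TMM factors, and differences as log2 fold changes of mutant over control from edgeR's quasi-likelihood test, where a gene was called at a Benjamini-Hochberg adjusted p under 0.05 over all 16448 genes tested. Every mean is followed by its SD over 4 controls or 3 mutants. The mean of Thra was 114.4 ± 9.35 CPM among controls and 87.5 ± 9.39 CPM among mutants, and it was not called (edgeR, adjusted p 0.0543, log2 fold change -0.39). Pvalb, the marker of parvalbumin neurons, fell from 41.0 ± 5.91 to 1.81 ± 0.682 CPM (log2 fold change -4.48), and of the other markers of GABAergic classes Syt2 and Npy fell (-2.18 and -0.64) and Sst rose (0.84). The GABAergic markers Gad1, Gad2 and Slc32a1 were present in every library and were not called. Markers of other cells were present too. For pericytes and fibroblasts, the summed CPM of 5 markers ran from 26.8 to 75.7 in controls and from 29.8 to 42.7 in mutants. Of these markers Pdgfrb was higher in every mutant than in every control and was not called (0.47, edgeR adjusted p 0.217). The median log2 fold change of that list was -0.18. Over 6 glutamatergic markers, the summed CPM ran from 73.2 to 139.8 in controls and from 77.7 to 127.9 in mutants, most of it Slc17a7 (72.2 ± 21.4 and 67.2 ± 18.4 CPM, beside 569.2 ± 63.2 and 637.0 ± 43.9 CPM for Gad1). Summed over 5 endothelial markers, CPM ran from 41.3 to 86.7 in controls and from 40.9 to 59.8 in mutants, and over 5 astrocyte markers from 39.1 to 66.9 and from 44.2 to 49.9, where Gfap has no base free of other genes and is listed at 0. Summed over 5 oligodendrocyte markers, CPM ran from 148.0 to 187.1 in controls and from 164.2 to 196.3 in mutants, with Mog the only marker called among the lists for other cells (0.93). Over 6 microglial markers the sum was higher in every mutant (18.2 to 21.7) than in every control (13.2 to 18.1). The gap lay in Csf1r, which had 7.42 ± 0.945 CPM among controls and 11.3 ± 1.08 CPM among mutants and was not called (0.61, adjusted p 0.055). Cx3cr1, C1qa, C1qb and Tmem119 overlapped between the groups (-0.01, 0.04, 0.22 and -0.05), and P2ry12 is listed at 0 like Gfap. The part of other cells, and of the classes of GABAergic neurons, in the results below was not tested. In bulk nuclei, fewer cells of a type and less RNA per cell cannot be told apart.

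Of the 49 reported members, 8 were called (16.3%), 3 lower and 5 higher in mutants, where 9.42% of all tested genes were called, 4.78% lower and 4.63% higher. The lower genes were Adamtsl5, Mmp11 and Adamts3. The higher genes were Adamts16, Adam12, Adamts6, Adamts10 and Adamts19. Adamtsl5 stood far from the rest, at about 18.2-fold lower in mutants, whereas fold changes of the other 7 ran from 1.35 to 2.72. The median log2 fold change of the members was -0.07, beside -0.01 over all tested genes, and the median absolute value was 0.34, beside 0.21. CPM did not overlap between the groups for 14 members (28.6%), beside 22.0% of all tested genes.

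**Figure D1:**
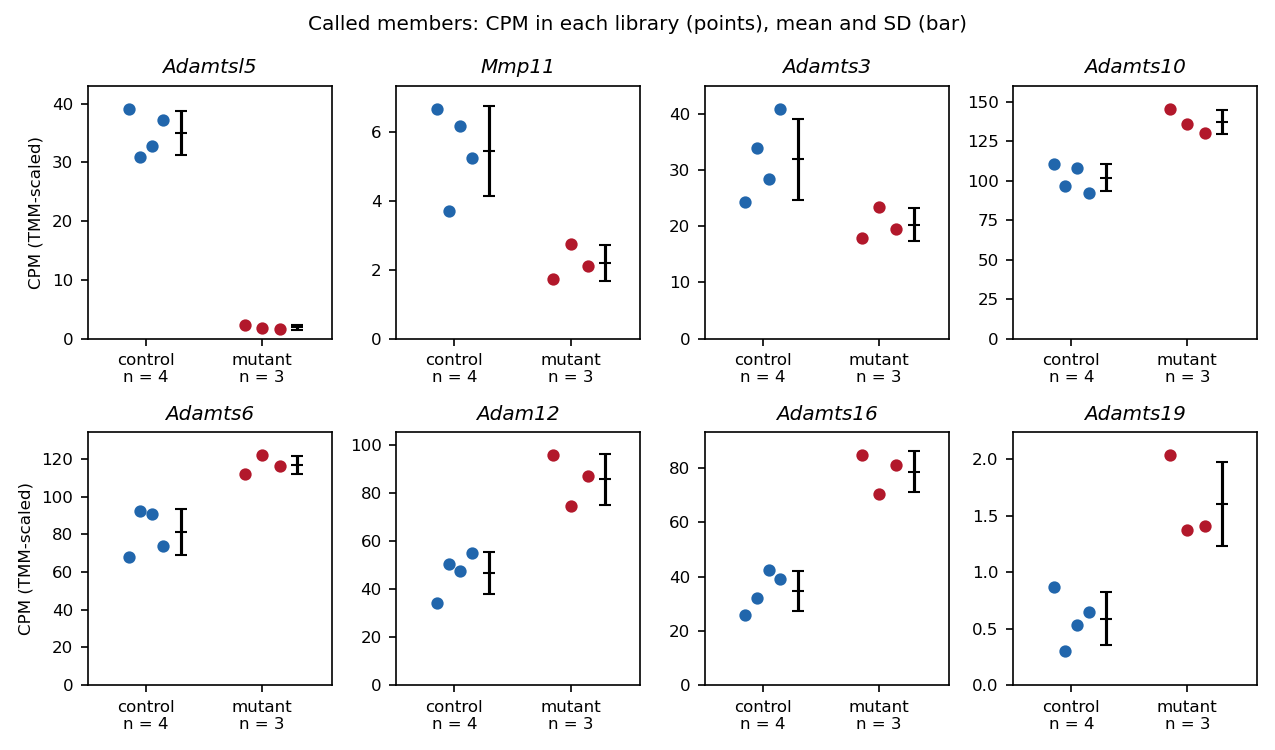
CPM (vertical axes, from 0) of the 8 called members in each library, with controls in blue (n = 4), mutants in red (n = 3), and the mean and SD as a bar beside the points. The groups do not overlap in any of the 8 panels, and Adamtsl5 is near 0 in all 3 mutants.

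RefSeq promoter windows (GRCm38.p6, from 250 bases before to 50 after the start site) were found for 29 of the 49 members. Of the 8 called members, only Adamtsl5, Mmp11 and Adamts3 had an entry, and these are shown. The members called higher had no entry, so their windows could not be searched. Capitals mark each match on either strand to AGGTCA, the hexamer that thyroid hormone receptors bind as a repeat. The windows are on the minus strand, at chr10:80348399-80348698 for Adamtsl5, chr10:75932453-75932752 for Mmp11 and chr5:89883285-89883584 for Adamts3.
Adamtsl5: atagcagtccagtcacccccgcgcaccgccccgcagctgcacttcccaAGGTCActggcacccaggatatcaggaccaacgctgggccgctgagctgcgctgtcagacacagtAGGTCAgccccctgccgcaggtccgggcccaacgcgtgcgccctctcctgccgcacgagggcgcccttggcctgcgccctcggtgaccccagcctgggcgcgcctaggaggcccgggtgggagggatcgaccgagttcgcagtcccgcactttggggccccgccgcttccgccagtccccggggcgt
Mmp11: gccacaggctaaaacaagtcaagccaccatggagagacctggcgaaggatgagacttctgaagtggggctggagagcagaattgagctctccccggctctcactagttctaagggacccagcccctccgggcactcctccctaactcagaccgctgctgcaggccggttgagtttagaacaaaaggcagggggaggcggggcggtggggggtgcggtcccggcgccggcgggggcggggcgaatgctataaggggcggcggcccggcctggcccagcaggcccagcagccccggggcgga
Adamts3: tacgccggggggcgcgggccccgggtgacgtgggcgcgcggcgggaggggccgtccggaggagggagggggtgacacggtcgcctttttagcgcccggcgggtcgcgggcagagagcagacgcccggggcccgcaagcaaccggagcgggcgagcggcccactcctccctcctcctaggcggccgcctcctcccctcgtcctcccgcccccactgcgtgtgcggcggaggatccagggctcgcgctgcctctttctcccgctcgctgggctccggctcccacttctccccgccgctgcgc
The Adamtsl5 window held 2 matches, which begin 202 and 137 bases before the start site, and the other 2 windows held 0. The Mmp11 window lies inside the span given for the gene below, not at the start of that span on the minus strand. Its 0 matches do not describe the bases before that start. Over all 32851 promoter windows of the same length, 16.3% held at least 1 match, and 4 of 32 windows of the members did (12.5%). The DR4 element, which is a direct repeat of the hexamer with a gap of 4 bases and so contains it, was in 0 of the 32 windows of the members and in 5 of all windows. These matches describe the letters of the windows only.

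The ADAMTS-like group held the largest change. Adamtsl5 encodes a secreted glycoprotein that binds fibrillin microfibrils (ENSMUSG00000043822.18, GRCm38 chromosome 10, 80339110 to 80348412, minus strand). Controls 1 to 4 held 493, 410, 430 and 461 of its reads and mutants 6, 7 and 8 held 30, 19 and 21, or 39.1, 31.0, 32.7 and 37.2 CPM against 2.35, 1.74 and 1.64 CPM. Every mutant was far below every control, and the spread within a group was small beside the gap. The log2 fold change was -4.18 (SE 0.19, edgeR adjusted p 3.6e-07). Per kb of merged exons, Adamtsl5 was at 7.41 ± 0.80 CPM in controls, rank 15 of the 49 members, and at 0.405 ± 0.081 CPM in mutants, rank 40. The other 4 ADAMTS-like genes were not called by edgeR, whereas limma-voom called Adamtsl1 and Adamtsl2 lower (-0.63 and -0.77, adjusted p 0.0141 and 0.0439). Over all genes limma-voom called 3147, where edgeR called 1549. Adamtsl1, the longest member, was at 21.6, 43.5, 36.2 and 61.6 CPM in controls and at 25.1, 27.0 and 23.0 CPM in mutants (log2 fold change -0.70, SE 0.27, adjusted p 0.131), so that control 1 lay below all mutants. Adamtsl2, whose product also binds fibrillin, had 7.55 ± 1.15 CPM in controls and 4.61 ± 1.96 CPM in mutants (log2 fold change -0.70, adjusted p 0.164). Adamtsl3 and Adamtsl4 were under 4 CPM in every library, with log2 fold changes of -0.02 and -0.07.

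**Figure D2:**
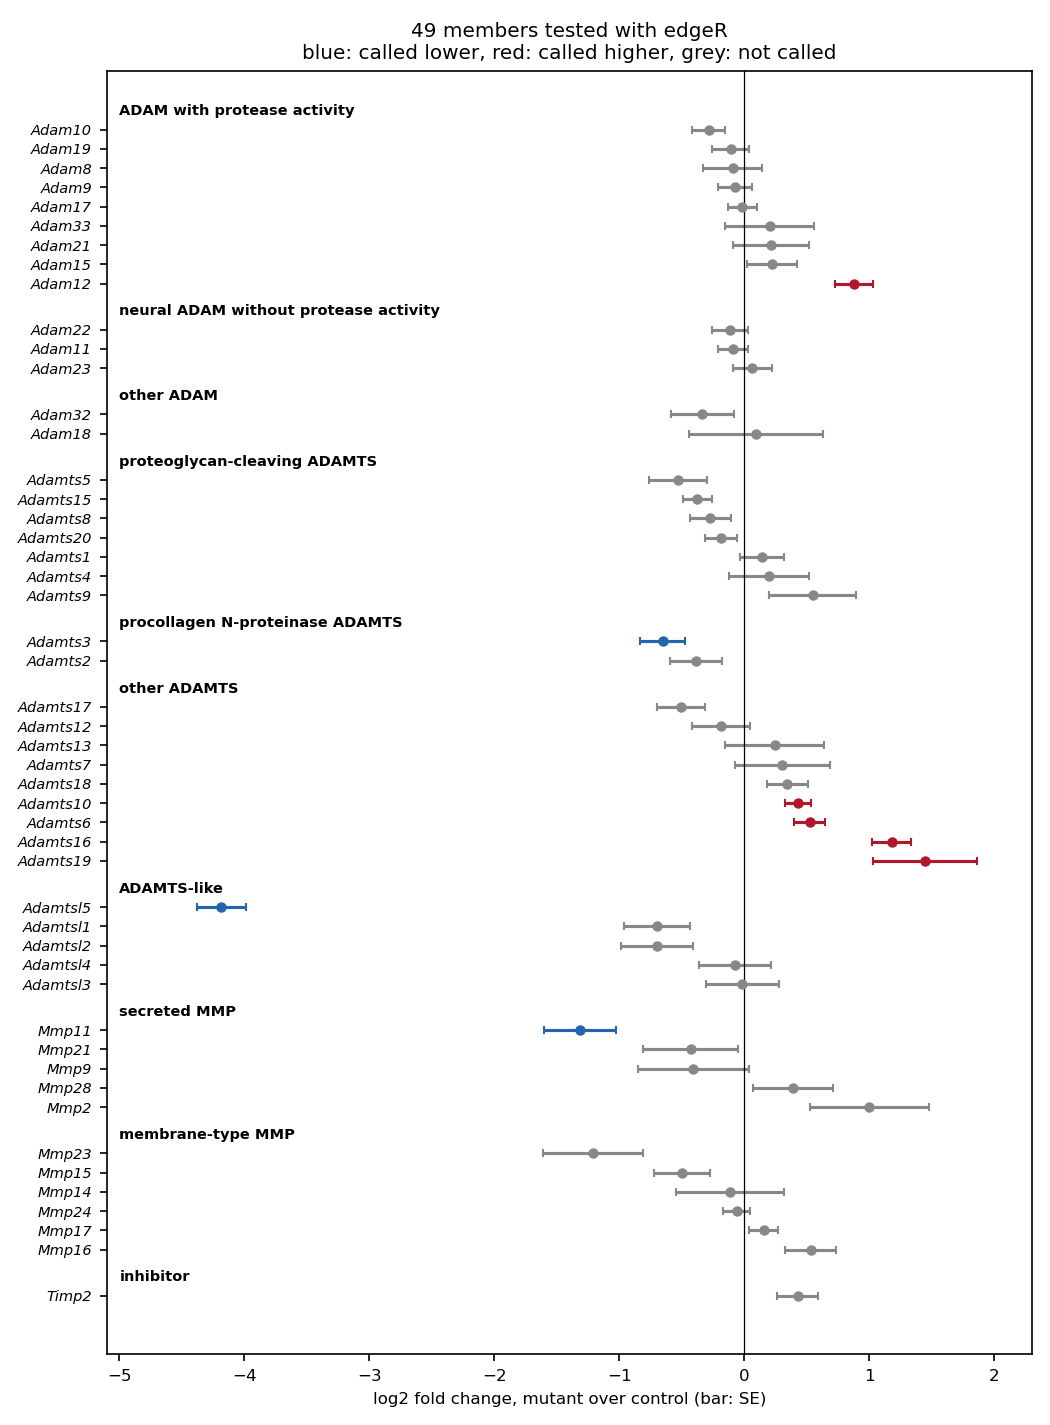
Log2 fold change of mutant over control (horizontal axis, bar: SE) for the 49 tested members, grouped by role, with called genes in blue (lower) or red (higher) and the others in grey. Adamtsl5 lies at -4.18, and 4 of the 5 genes called higher are in the group of other ADAMTS genes. Over all tested genes, 4.63% were called higher.

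The ADAMTS genes outside the proteoglycan-cleaving and procollagen groups held 4 of the 5 rises. Of these 9 genes, 4 were called higher and 0 lower, beside 4.63% and 4.78% of all tested genes. Their median log2 fold change was 0.34. The calls of Adamts6, Adamts10 and Adamts19 were lost in 3, 5 and 5 of the 7 fits that left out 1 library. Adamts16, whose product can cut fibronectin, had 25.8, 32.3, 42.4 and 39.0 CPM in controls and 84.7, 70.5 and 81.2 CPM in mutants. The lowest mutant was well above the highest control (log2 fold change 1.18, SE 0.16, edgeR adjusted p 0.00062; chromosome 13, 70727802 to 70841811). Adamts18, the closest relative of Adamts16 by sequence, was at 21.7, 30.9, 30.4 and 33.6 CPM in controls and 40.1, 30.4 and 40.4 CPM in mutants. Mutant 7 lay within the controls, and the gene was not called (log2 fold change 0.34, adjusted p 0.243).

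Adamts6 and Adamts10 are a related pair, and Adamts10 is known for its role in fibrillin microfibrils. Adamts6 was at 68.1, 92.5, 91.0 and 73.7 CPM in controls and 112.2, 122.0 and 116.4 CPM in mutants (log2 fold change 0.52, SE 0.12, edgeR adjusted p 0.0205; chromosome 13, 104287835 to 104496695). Adamts10 was at 110.7, 97.0, 107.9 and 92.5 CPM in controls and 145.6, 136.0 and 130.2 CPM in mutants (log2 fold change 0.43, SE 0.11, edgeR adjusted p 0.0251; chromosome 17, 33524204 to 33553782). In both genes the groups did not overlap, but the rise was under 1.5-fold. Adamts6 lost its call without any 1 of the 3 mutants (log2 fold changes 0.50 to 0.55, adjusted p up to 0.101). Adamts10 lost it in 5 of the 7 fits that left out 1 library, the exceptions being those without control 1 or 4 (0.38 to 0.47, adjusted p up to 0.127).

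Adamts17 and Adamts19 form another related pair and gave values of opposite sign. Adamts17 was among the most abundant members, with 189.5, 301.1, 281.0 and 378.4 CPM in controls and 225.6, 191.0 and 190.3 CPM in mutants. Control 1 was below all 3 mutants while the other controls were above them, and the gene was not called (log2 fold change -0.51, SE 0.19, adjusted p 0.137), although limma-voom called it (-0.51, adjusted p 0.00482). Adamts19 was the least abundant member per kb, with 11, 4, 7 and 8 reads among controls against 26, 15 and 18 among mutants (log2 fold change 1.44, SE 0.42, edgeR adjusted p 0.0493; chromosome 18, 58836667 to 59054060). The groups did not overlap, but at this depth each control held at most 11 reads. Of the 7 fits that left out 1 library, the call held only in those without control 1 or control 4 (otherwise 1.23 to 1.54, adjusted p up to 0.221). It was also lost without a filter on low counts (1.45, adjusted p 0.0594) and with a term for Y-linked reads (1.45, adjusted p 0.0583). Adamts7, Adamts12 and Adamts13, the enzyme that cuts von Willebrand factor, were under 5 CPM in every library, at -0.19 to 0.30 on the log2 scale.

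Of the procollagen N-proteinases, which trim the amino end of fibrillar procollagens, Adamts3 fell. The enzyme ADAMTS3 also cuts reelin, a secreted protein made by cortical interneurons. Adamts3 was at 24.3, 33.9, 28.5 and 40.9 CPM in controls and 17.8, 23.5 and 19.5 CPM in mutants (log2 fold change -0.66, SE 0.18, edgeR adjusted p 0.0425; chromosome 5, 89677087 to 89883334). Control 1 and mutant 7 were close to each other, and leaving out control 2, control 3, mutant 6, mutant 7 or mutant 8 ended the call (-0.77 to -0.57, adjusted p up to 0.186). Adamts2 did not overlap between the groups, at 5.73 to 6.47 CPM in controls and 4.22 to 5.55 CPM in mutants, but was not called (log2 fold change -0.39, adjusted p 0.298).

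Of the 7 proteoglycan-cleaving ADAMTS genes edgeR called 0, with 2 at an unadjusted p under 0.05, a threshold that 22.5% of all tested genes passed, and log2 fold changes lay between -0.53 and 0.55. DESeq2 called Adamts15, and limma-voom called Adamts15 and Adamts20, all lower. Over all genes these 2 tools called 1989 and 3147, where edgeR called 1549. The most abundant per kb of merged exons was Adamts20, at 74.1 ± 9.86 CPM in controls and 65.0 ± 7.07 CPM in mutants. Adamts15 came close to the threshold, at 62.6, 59.7, 66.1 and 61.7 CPM in controls and 53.6, 49.3 and 41.5 CPM in mutants (log2 fold change -0.38, SE 0.11, adjusted p 0.0622). All 3 mutants were below all 4 controls, and Adamts15 was called without control 4 (-0.38, adjusted p 0.0375). Adamts5, an aggrecanase, also did not overlap between the groups, at 4.92 to 6.12 CPM in controls and 2.89 to 4.14 CPM in mutants, and was not called (-0.53, adjusted p 0.196). Adamts4, the other main aggrecanase, was at 24 to 57 counts per library (0.20, adjusted p 0.788).

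Among the ADAMs with protease activity, Adam12 rose and the other 8 reported genes were not called. Adam12 encodes meltrin alpha, which sheds growth factors such as HB-EGF (chromosome 7, 133883199 to 134232146). It was at 34.2, 50.3, 47.4 and 54.9 CPM in controls and at 95.6, 74.5 and 87.0 CPM in mutants. The groups were well apart (log2 fold change 0.88, SE 0.15, edgeR adjusted p 0.0036). Adam10, the main alpha-secretase of neurons and the most abundant of this group per kb of merged exons, was at 90.5 ± 14.3 CPM in controls and 74.1 ± 6.42 CPM in mutants (-0.29, SE 0.13, adjusted p 0.229). Adam17, the enzyme that sheds TNF, was at 39.5 ± 3.00 and 39.0 ± 2.73 CPM (-0.02, SE 0.12, adjusted p 0.962).

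The neural ADAMs without protease activity were abundant and close between the groups. Adam22, the receptor through which LGI1 acts at synapses, was at 431.3, 536.2, 465.3 and 571.9 CPM in controls and 479.3, 458.3 and 452.6 CPM in mutants (log2 fold change -0.11, SE 0.14). Adam11 (-0.09, SE 0.12) and Adam23 (0.06, SE 0.16) were not called either, with adjusted p-values of 0.729 and 0.868. Of the 12 remaining Adam genes, mostly known from the male germ line, Adam32 and Adam18 passed the count rule and neither was called. Adam32 was at 11.9 ± 3.10 CPM in controls and 9.41 ± 2.80 CPM in mutants.

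Secreted MMPs were scarce in these nuclei. Of 14 such genes, 5 were reported, all under 7 CPM in every library. Mmp11 encodes stromelysin-3, which is activated by furin inside the cell (chromosome 10, 75923222 to 75936496). Controls held 84, 49, 81 and 65 of its reads and mutants 22, 30 and 27, or 6.66, 3.70, 6.17 and 5.24 CPM against 1.72, 2.75 and 2.11 CPM. The groups did not overlap, and the log2 fold change was -1.31 (SE 0.29, edgeR adjusted p 0.0133). The call was lost without mutant 6 or mutant 8 (-1.28 to -1.16, adjusted p 0.0682 to 0.0779). The gelatinases Mmp2 and Mmp9 were at 3 to 16 and 12 to 45 counts per library and were not called, although Mmp2 did not overlap between the groups (1.00, adjusted p 0.239).

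Of the 6 reported MMPs grouped here as membrane-bound, Mmp23 among them, edgeR called 0, with 3 at an unadjusted p under 0.05 (22.5% of all tested genes). Mmp16, Mmp17 and Mmp24 were abundant, and Mmp14, Mmp15 and Mmp23 were under 9 CPM in every library. DESeq2, with 1989 calls over all genes, called Mmp23, and limma-voom, with 3147, called Mmp16 and Mmp23, where edgeR had 1549. Mmp16, which encodes MT3-MMP, was the member with the highest level per kb of merged exons, at 238.9, 406.6, 335.8 and 494.3 CPM in controls and 540.1, 554.9 and 501.5 CPM in mutants. All mutants were above all controls, but controls 1 and 4 differed from each other by more than the group means did, and Mmp16 was not called (log2 fold change 0.53, SE 0.21, adjusted p 0.144). Without control 4 it was called (0.70, adjusted p 0.00746). Mmp24, the brain-rich MT5-MMP, was at 73.9 ± 7.16 and 70.8 ± 1.52 CPM (-0.06, SE 0.11), and Mmp17 at 95.8 ± 9.65 and 106.5 ± 9.20 CPM (0.15, SE 0.11). Mmp23 did not overlap between the groups, at 29 to 63 counts in controls and 7 to 25 in mutants, and was not called (-1.21, SE 0.40, adjusted p 0.0829).

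Only 1 of the 4 inhibitors could be compared. Timp2, which blocks MMPs broadly, was at 116.0, 76.8, 92.8 and 75.6 CPM in controls and 98.2, 143.7 and 121.8 CPM in mutants (log2 fold change 0.42, SE 0.17, adjusted p 0.147). The groups overlapped, and Timp2 was called without control 1 (0.57, adjusted p 0.0135), by limma-voom (0.48, adjusted p 0.0132) and with controls 2 and 3 only (0.51, adjusted p 0.00696). Timp1, Timp3 and Timp4 were listed at 0 in all 7 libraries. Each of the 3 lies wholly inside a synapsin gene on the opposite strand, Timp1 inside Syn1, Timp3 inside Syn3 and Timp4 inside Syn2, and these synapsin genes had 355 to 4739 counts per library. Of all 1351 protein-coding genes with no base free of other genes, on either strand, 0 had a count in any library, against 83.8% of those with more than 50% of the span free. A listed 0 for Timp1, Timp3 or Timp4, and likewise for Mmp19 and Adam4, is therefore no measure of its expression. The 3 listed inhibitors could not be compared between the groups.

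**Figure D3:**
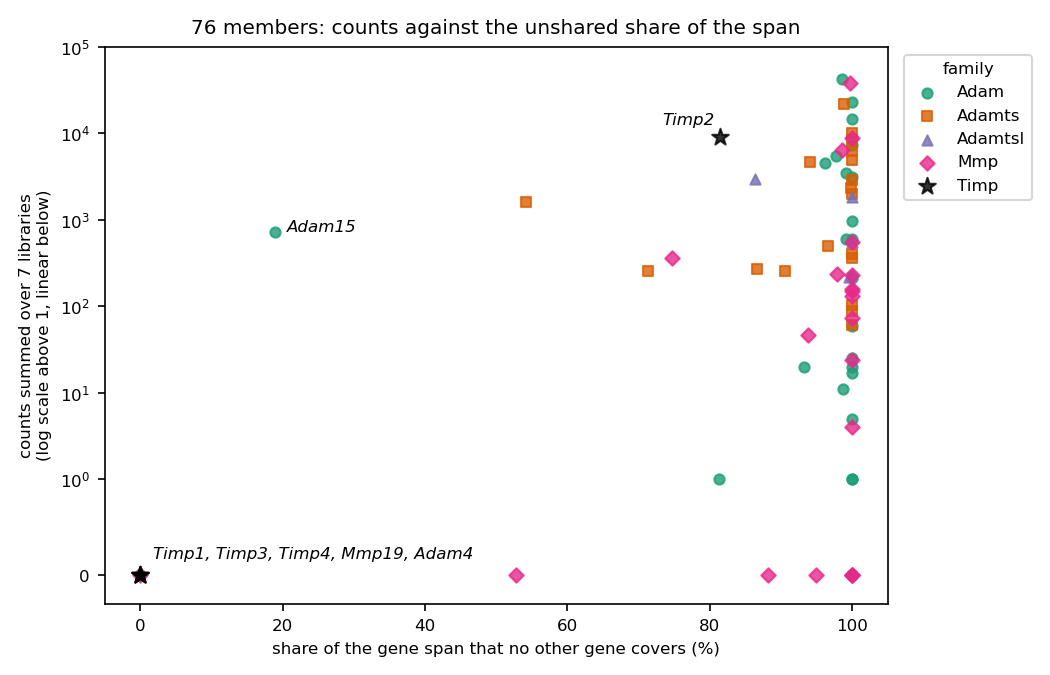
Counts summed over the 7 libraries (vertical axis, log scale above 1) against the share of the gene span that no other gene covers (horizontal axis, %) for the 76 members, 1 point per gene, marked by family. The 5 members with no unshared base, Timp1, Timp3 and Timp4 among them, all sit at 0 counts, and Timp2 sits at 81.5%.

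The other 22 members under the count rule were 9 genes at 0 in every library despite unshared bases, all of them Adam or Mmp genes, and 13 with few counts. Just inside the rule was Adam18, with 4 to 14 counts per library. Just outside were Adamts14, with 4 to 20, and Mmp25, with 1 to 17.

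Controls 1 and 4 differed by gene length. Among the 18 reported members over 100 kb, the median log2 ratio of control 1 to control 4 was -0.53, and among the 26 under 50 kb it was 0.09. Over all tested genes these medians were -0.70 and 0.20. With an offset for the trend over genomic length in each library, 13 members were called (16.7% of all genes were called by that fit), including all 8. The 5 added were Mmp16 (0.54, adjusted p 0.000539), Adamts17 (-0.51, adjusted p 0.000768), Adamtsl1 (-0.66, adjusted p 0.000881), Adamts15 (-0.38, adjusted p 0.0184) and Mmp23 (-1.13, adjusted p 0.0423). Adamts17 and Adamtsl1 were also called without control 1 (-0.66 and -0.91, adjusted p 0.00485 and 0.00323).

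**Figure D4:**
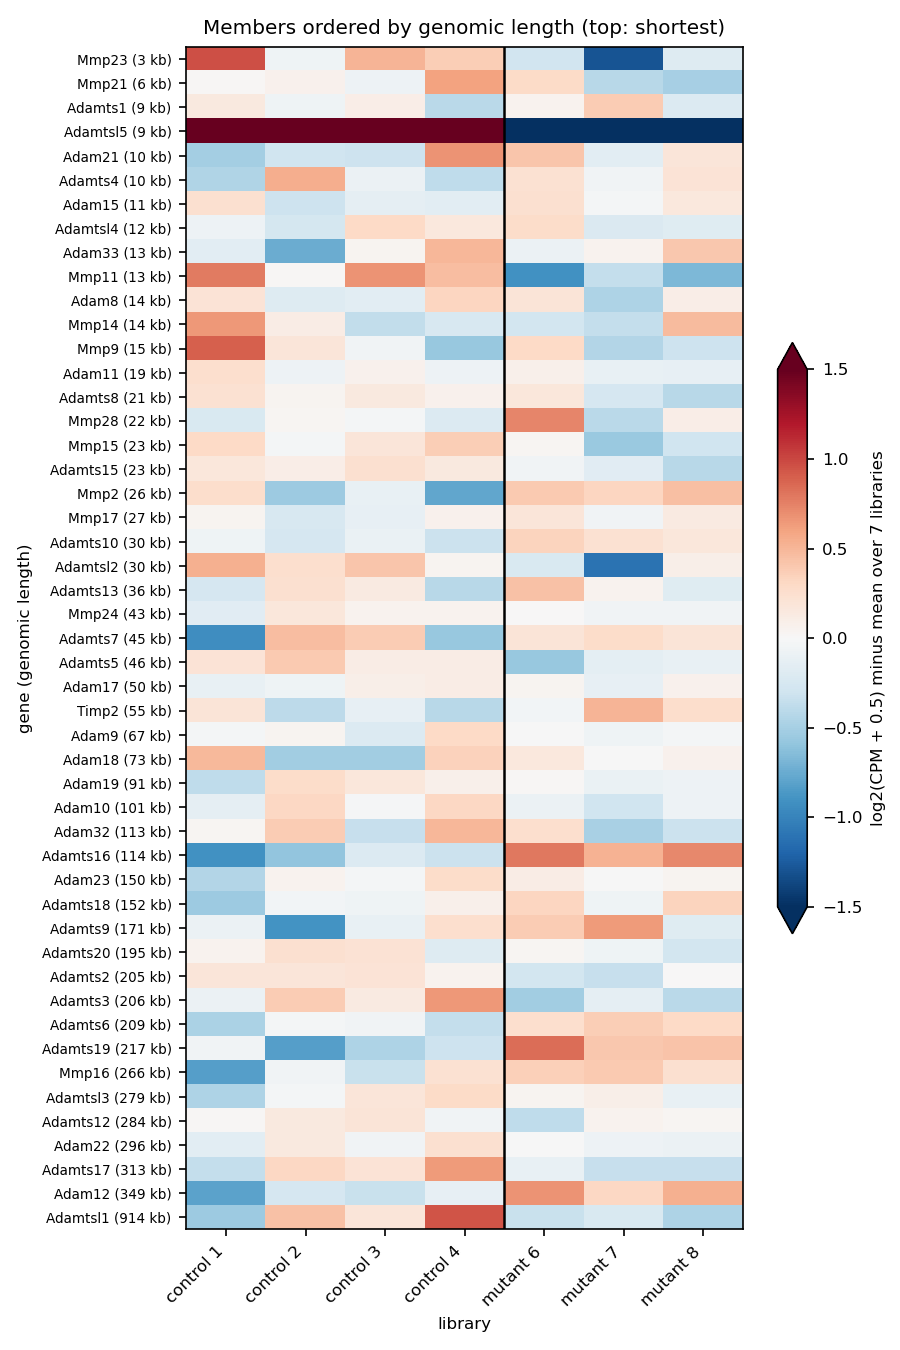
Log2(CPM + 0.5) of each reported member minus its mean over the 7 libraries (colour, red higher, blue lower, limited to 1.5 in either direction), with libraries as columns and genes as rows ordered by genomic length. Control 1 is low and control 4 high for Adamts17 and Adamtsl1, among the longest genes at the bottom, while Adamtsl5, Adamts16 and Adam12 separate the groups.

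The levels also depended on the length used. Gfap shares 0% of its exon bases with exons of other genes, has no unshared base in its span, and was at 0. The counts were therefore taken over gene spans, introns included, and a level per kb of exons also holds intron reads. Over all 7 libraries Mmp16 was at 50.6 CPM per kb of exons and 1.65 CPM per kb of unshared span. Per kb of merged exons, the most abundant members in controls were Mmp16 at 42.6 ± 12.5, Adamts17 at 37.0 ± 10.0, Adam22 at 34.9 ± 4.48, Adam11 at 30.0 ± 3.37 and Timp2 at 23.2 ± 4.83 CPM per kb. The same 5 led in mutants in another order, with Mmp16 at 61.4 ± 3.18, Adam22 at 32.3 ± 0.982, Timp2 at 31.1 ± 5.84, Adam11 at 28.1 ± 2.28 and Adamts17 at 26.1 ± 2.59 CPM per kb. Over all 7 libraries and per kb of unshared gene span, the highest were Adam11 at 8.79 and Adamts10 at 3.96 CPM per kb. By this measure 5 of the 10 role groups had another leading member than by exons. Adam15 at 3.82 led the ADAMs with protease activity, where Adam10 was at 0.825 CPM per kb. Adamts1 at 2.47 led the proteoglycan-cleaving group, where Adamts20 was at 0.359 CPM per kb. The ranks are therefore a description under a stated length only. All neighbours in the exon-based order from Mmp24 to Adam23, ranks 7 to 9, lay within 1 SD of each other in controls (15.8 ± 1.53, 14.5 ± 1.46 and 14.4 ± 2.83 CPM per kb).

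Among regulators and partners of these proteases, a list of 29 genes with 25 tested, 2 were called lower and 3 higher, where 4.78% and 4.63% of all tested genes were. Lgi3, a secreted ligand of the inactive ADAMs, fell from 183.7 ± 20.6 to 82.1 ± 12.8 CPM (log2 fold change -1.16, edgeR adjusted p 0.000275). Lgi2, of the same family, rose from 135.4 ± 11.3 to 190.4 ± 22.7 CPM (0.49, adjusted p 0.0222). The call of Lgi2 was lost without control 3, mutant 6 or mutant 7 (0.44 to 0.52, adjusted p up to 0.127). Serpine2, an inhibitor of plasminogen activators, rose from 31.7 ± 3.59 to 56.8 ± 3.37 CPM (0.84, edgeR adjusted p 0.00104). Plau, the urokinase-type plasminogen activator, fell from 2.33 ± 0.72 to 0.932 ± 0.079 CPM (-1.31, adjusted p 0.0406), a call lost without any library but control 4 (-1.42 to -1.17, adjusted p up to 0.146) and lost with a term for Y-linked reads. Among the TspanC8 tetraspanins that escort ADAM10 and the iRhom genes that serve ADAM17, Rhbdf1 came nearest to a call (0.67, adjusted p 0.0563), and Tspan10 and Rhbdf2 were not tested.

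Among substrates and matrix partners, 26 genes with 25 tested, 3 were called in each direction (4.78% of all tested genes lower, 4.63% higher). Bcan, the brevican gene whose product ADAMTS4 and ADAMTS5 cut, fell by 1.70 on the log2 scale (adjusted p 3.17e-05), whereas Acan, Ncan and Vcan were not called. Genes of fibrillin microfibrils, to which Adamtsl5 and Adamts10 products bind, went in both directions. Ltbp2 fell from 23.0 ± 4.72 to 3.77 ± 1.30 CPM (-2.61, SE 0.26, edgeR adjusted p 8.84e-05), and Ltbp3 fell from 60.7 ± 5.18 to 35.1 ± 7.85 CPM (-0.79). Fbn2, the fibrillin-2 gene, rose from 23.6 ± 2.01 to 51.1 ± 4.61 CPM (1.11, SE 0.12, edgeR adjusted p 0.000167), and Ltbp4 rose from 44.2 ± 4.92 to 71.6 ± 1.44 CPM (0.69). Fbn1 and Ltbp1 were not called, at -0.40 and 0.34. Col4a1, a collagen of basement membranes, rose by 0.60, a call lost without mutant 6 (0.54, edgeR adjusted p 0.0593). Reln was at 670.3 ± 99.9 CPM in controls and 901.3 ± 129.1 CPM in mutants and was not called (0.43, adjusted p 0.162).

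The calls differed in how often they were lost when 1 library was left out. Such fits hold fewer samples, and over all genes they called 766, 734 and 816 without mutants 6, 7 and 8, against 1549. A lost call alone therefore does not show that it rested on that library. Adamtsl5, Adamts16 and Adam12 were called in all 7 fits that left out 1 library and in the 8 other alternatives, with log2 fold changes from -4.36 to -4.05, from 1.06 to 1.29 and from 0.76 to 0.97. The other 5 were each lost in at least 2 of the 7 fits, and none of the 8 changed sign in any fit.

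**Figure D5:**
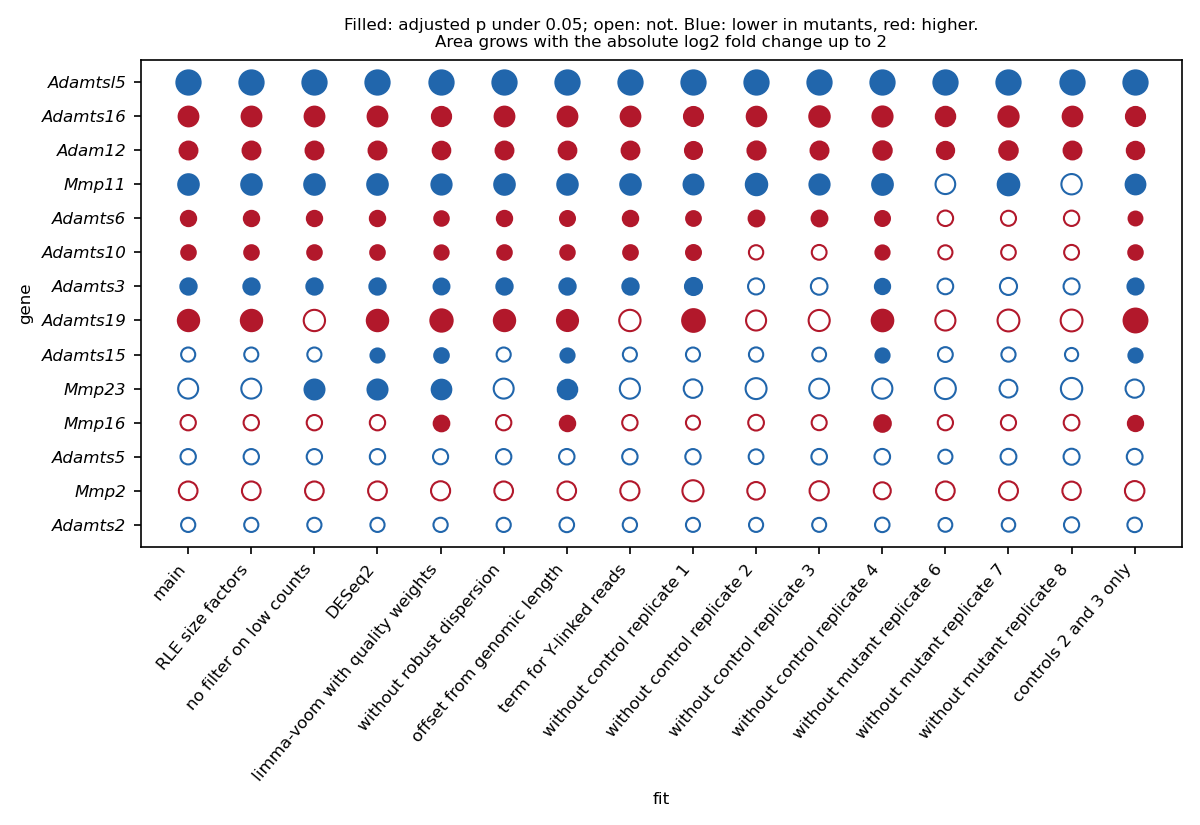
Calls of the 8 called members and of the 6 members whose groups did not overlap without a call (rows) in each fit (columns), filled where the adjusted p was under 0.05, blue for lower and red for higher in mutants, with the area growing with the absolute log2 fold change up to 2. Adamtsl5, Adamts16 and Adam12 are filled in every column, while Adamts5, Mmp2 and Adamts2 are open in every column.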

How the data were processed

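Per the labels' protocols, nuclear RNA of sorted nuclei went through SMART-Seq v4 and Nextera XT to paired-end sequencing on a NextSeq500. The deposited values are raw counts of reads per gene. Bowtie2 2.5.3 and GRCm38 (mm10) are named per the submitters' processing notes, and the counting program is not given in the sources used here. In the deposited counts every protein-coding gene without a base free of other genes, on either strand, was at 0. Gfap, whose exons are unshared, was among them, so reads were counted over gene spans, introns included. Reads carry no molecular identifiers, and the lowest total was 10747169 counts.

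Symbols and coordinates came from GENCODE M21, which lists all 55450 identifiers. In R 4.3.3, edgeR 4.0.16 (filterByExpr with least count 10 and least total 15, TMM, robust glmQLFit, glmQLFTest) compared the groups with no covariate, and all 49 reported members passed the filter. The SE is the fold change on the log2 scale over the square root of F. Alternatives were RLE scaling, no filter, no robust dispersion, DESeq2 1.42.0, limma 3.58.1 voom with quality weights, a length offset, a term for Y-linked reads (3 and 4 in mutant 8 and control 4, 5094 to 6644 elsewhere), each library left out, and, chosen after seeing the data, controls 2 and 3 only. In counts simulated for this comparison (16208 genes), edgeR recovered 68 of 100 genes changed by 1 and 91 of 100 changed by 2 on the log2 scale, with 5 false calls. The simulated counts held no trend over gene length, which controls 1 and 4 showed.

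Members and lists were chosen with earlier results of these data known. Named genes are Thra, Pvalb, called members, the member of each role group with the highest level per kb of exons, and members whose groups did not overlap. Others were named by role or level after their values were seen. Some genes that the counts of the lists include are not reported here.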

Additional observations from a re-analysis of the deposited data

Results flagged for a closer look

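Controls were searched for a library that stood apart, which a group of 3 mutants does not allow. Of 51 genes examined, the 49 members with Thra and Pvalb, 2 had a control whose distance from its neighbour, as a share of the spread of all 4, passed the critical value of Dixon's test. About 1 in 20 would pass by chance. For Adam21, control 4 reached 10.9 CPM against 4.52 to 5.29 CPM elsewhere (share of the spread 0.879), and mutants held 64 to 115 of its reads. For Adamts2, control 4 was lowest, 5.73 CPM against 6.35 to 6.47 CPM (share of the spread 0.832).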

How the results depend on the processing

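The count of members called lower, 3, was 5 with DESeq2, 9 with limma-voom and quality weights, 7 with the length offset and 8 with controls 2 and 3 only, and it ran from 1 to 5 over the fits without 1 library. The count called higher, 5, ran from 2 to 6 over those fits, and it stayed within 1.5 times in the other alternatives. Over all genes the count of 1549 was 1989 with DESeq2, 3147 with limma-voom, 2753 with the length offset and 2778 with controls 2 and 3 only. It ran from 734 to 2347 without 1 library. Thra was called with DESeq2 (-0.39, adjusted p 0.0284), limma-voom (-0.43, adjusted p 0.00359), the length offset (-0.40, adjusted p 0.00956), controls 2 and 3 only (-0.48, adjusted p 0.000755), and also without control 1 (-0.41, adjusted p 0.0275) or control 4 (-0.43, adjusted p 0.0149). Its log2 fold change ran from -0.46 to -0.31 without 1 library. The cause of these changes was not tested. The median of the members stayed between -0.09 and -0.01 in every fit. No paired analysis was run because the labels name no pairing of controls and mutants. Depth limits Adamts19, Mmp2, Adam18, Adamts13 and Mmp23, each under 10 counts in at least 1 library.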

Other observations

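Some members lie next to each other on a chromosome. Adamts1 and Adamts5 are 53.1 kb apart on chromosome 16 and had log2 fold changes of 0.14 and -0.53, and Adamts15 and Adamts8 are 20.1 kb apart on chromosome 9 and had -0.38 and -0.27. Mmp21 and Adam12 are 203 kb apart on chromosome 7 and had -0.43 and 0.88, and of these 6 genes Adam12 alone was called.

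Adam28, an ADAM known from lymphocytes, was under the count rule and was not tested. It had 5, 2, 4 and 6 counts in controls 1 to 4 and 0 counts in each of the 3 mutants, where a count of 0 allows up to 3 counts per library. It was named after its values were seen.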
